A study of Mus musculus with 6 samples.

Results

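The genes described here are 39 genes of the integrated stress response (ISR) and the unfolded protein response (UPR), 2 linked programmes by which a cell answers shortage of amino acids or misfolded protein in the endoplasmic reticulum (ER). They were listed by name from 24341 gene rows of the deposited table, and all 39 had a row of their own. The list was put together with the genotype comparison of these same data in view, and Atf5 in particular was selected on its values there. The genotype differences of the 39 genes are therefore given as a description. Their calls are counted only beside the share over all genes, their intervals show precision, and nothing is supported with either.

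In the ISR, kinases that sense stress phosphorylate the translation factor eIF2, which lowers protein synthesis in general but favours translation of a few mRNAs, among them those of the bZIP transcription factors ATF4 and ATF5. ATF4, often with C/EBP partners, raises transcription of genes for amino acid synthesis, amino acid transport and tRNA charging. In the UPR, the sensors PERK, IRE1 and ATF6 in the ER membrane induce chaperones and folding enzymes, and PERK is also an eIF2 kinase, so that the programmes meet in ATF4. Because ATF4 and ATF5 are controlled largely at translation, transcript levels report only part of their activity.

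The cells were alveolar macrophages (AMs), the resident macrophages of the lung airspaces, from the bronchoalveolar lavage (BAL) of untreated female C57BL/6 mice aged 6 to 10 weeks. CD44+/+ mice were compared with CD44-/- mice, which lack the hyaluronan receptor CD44 in all cells. Each genotype had 3 samples, each a pool of mice, and the error and p-values given cover differences among pools, not among individual animals. Lavage was done in PBS with EDTA, red cells were lysed, and the RNA was that of the lavage cells with no sort described in the labels.

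All levels are FPKM, fragment numbers scaled to transcript length and to library size, so that levels of different genes can be set side by side. Differences are log2 fold changes on the scale log2(FPKM + 0.1), CD44-/- minus CD44+/+, with the standard error (SE) of the fit to all genes. Absolute depth is unknown, and the steps between the lowest values put the depth of the other samples at 0.816 to 1.05 times that of the first CD44+/+ sample. The targeted gene followed its labels, with 540, 535 and 527 FPKM of Cd44 in CD44+/+ AMs against 54.7, 54.5 and 51.4 FPKM in CD44-/- AMs. Macrophage identity was plain, since Chil3 stood at 10300 to 14200 FPKM in the 6 samples, and the summed level of the 9 AM markers in the table was 16715 to 19445 FPKM in CD44+/+ and 16220 to 20466 FPKM in CD44-/- AMs. Chil3 and the row of Ear2 and Ear3 (3170 to 3930 FPKM) made up most of that sum. Within the list the groups did not overlap for Krt79, at 265, 269 and 314 FPKM in CD44+/+ and 224, 203 and 225 FPKM in CD44-/- AMs (-0.38, SE 0.08, limma adjusted p = 0.185), for Mrc1, also with lower values (-0.08, SE 0.04), and for Itgax, with higher values (0.08, SE 0.05). These were 2 genes lower and 1 higher of the 9, beside 4.88% and 6.75% of all genes. Markers of other cells had lower sums, but single genes among them did not all have lower levels. Scgb1a1 of the airway list stood at 277 to 571 FPKM, above Pparg of the AM list at 134 to 159 FPKM. The 8 alveolar type 2 markers summed to 61.9 to 99.3 FPKM in CD44+/+ and 103 to 179 FPKM in CD44-/- samples, 7 airway secretory markers to 842 to 1402 and 652 to 1135 FPKM, 7 erythroid rows to 14.7 to 124 and 17.5 to 336 FPKM, and 8 neutrophil markers to 91.3 to 189 and 97.8 to 114 FPKM. Epcam was a large part of the type 2 sum, at 76.2, 56.1 and 45 FPKM against 68.3, 96.1 and 89 FPKM, with overlapping groups. Sftpc stood at 74.2 FPKM in CD44-/- replicate 3 and at 22.8 and 12.4 FPKM in CD44-/- replicates 1 and 2. The 9 lymphocyte markers summed to at most 2.36 FPKM in any sample, and Camp of the neutrophil list was listed at 0 in all samples. The 10 immediate early genes, which rise within minutes of handling a cell, summed to 254 to 294 FPKM in CD44+/+ and 254 to 398 FPKM in CD44-/- samples. Of the genes compared, 5 of 5 type 2 markers, 7 of 10 immediate early genes and 0 of 7 airway secretory markers had higher fitted values in CD44-/- samples, and none of them was called by limma, with 3, 4 and 0 higher at an unadjusted p under 0.05, where 4.75% of all genes were. The part of these other cells and of handling in the differences below was not tested, and in such mixed RNA fewer cells of a type and less RNA per cell cannot be told apart.

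Short motifs in promoters link these genes to the factors of each programme, and the sites are shown because the genes are grouped by role below. RefSeq windows of GRCm38.p6, from 250 bases before to 50 bases after the transcription start, were found for 34 of the 39 genes, and each motif was searched on both strands. The C/EBP-ATF element TGATGCAA, which ATF4 binds with C/EBP partners, was held by 5 of the 34 genes (14.7%) and by 1.03% of all 27025 genes with a window. Its looser form TGATGNAA, which includes the former, was held by 8 of 34 (23.5%) and by 4.51% of all genes. In the lines that follow, capitals mark the element or its reverse complement, read 5′ to 3′ on the strand of the gene.
Asns (chr6:7693214-7693243, minus strand): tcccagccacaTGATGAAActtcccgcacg
Gars (chr6:55037960-55037989, plus strand): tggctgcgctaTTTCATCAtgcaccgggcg
Nupr1 (chr7:126625562-126625591, minus strand): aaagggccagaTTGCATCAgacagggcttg
Herpud1 (chr8:94386306-94386335, plus strand): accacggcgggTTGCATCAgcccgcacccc

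The element began at position -23 from the RefSeq start in Asns and -30 in Gars, and at -110 and -112 in Nupr1 and Herpud1. Other genes with it included Chac1 and Pycr1 in the strict form and Trib3 in the looser form. None of the 5 bZIP factors and neither of the 2 ER stress sensors with a window held it.

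The ER stress element, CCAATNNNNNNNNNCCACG, was found in 5 of 34 genes (14.7%) and in 0.137% of all genes, and all 5 were ER chaperones or folding enzymes. The capitals in these stretches mark the element, which is bound by NF-Y and ATF6 and which Hsp90b1 held at 2 places.
Hspa5 (chr2:34772020-34772049, plus strand): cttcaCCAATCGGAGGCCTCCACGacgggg
Hsp90b1 (chr10:86705632-86705661, minus strand): caagcCCAATCGCAAGGAGCCACGcttcgg
Hsp90b1 (chr10:86705527-86705556, minus strand): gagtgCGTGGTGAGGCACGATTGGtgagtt
Calr (chr8:84847069-84847098, minus strand): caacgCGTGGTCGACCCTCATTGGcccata
Canx (chr11:50325794-50325823, minus strand): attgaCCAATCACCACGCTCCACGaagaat
Pdia6 (chr12:17266486-17266515, plus strand): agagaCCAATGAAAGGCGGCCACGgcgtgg

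The UPR element TGACGTGG was held by none of the 34 genes and by 0.714% of all genes, and the cyclic AMP response element TGACGTCA, which shares its first bases, by Ppp1r15a alone and by 2.03% of all genes. These genes were listed as ATF4 and ER stress genes in the first place, so the shares describe the list. A match is a run of letters and not a site shown to be bound.

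Atf5, the gene with the largest difference, had 2 RefSeq starts, and neither window held any of the 5 motifs. The 150 bases before each start are given because the difference in transcript level is one of this gene. In GENCODE vM21 the upstream stretch lies within the spans of the genes Nup62 and Il4i1 on the other strand.
Atf5, upstream start (chr7:44816659-44816808, minus strand): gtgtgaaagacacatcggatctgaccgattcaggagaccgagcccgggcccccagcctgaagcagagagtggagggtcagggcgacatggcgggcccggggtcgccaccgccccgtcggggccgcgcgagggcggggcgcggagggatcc
Atf5, downstream start (chr7:44815659-44815808, minus strand): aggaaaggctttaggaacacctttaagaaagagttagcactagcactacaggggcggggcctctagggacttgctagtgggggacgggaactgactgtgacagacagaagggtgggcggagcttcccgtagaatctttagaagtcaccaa

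The upstream stretch was 72.7% and the downstream stretch 52.7% G and C. The deposited values do not separate transcripts from the 2 starts.

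Of the 39 genes, 36 reached an average of 0.5 FPKM across the samples and were compared. The 3 that did not were Ddit4, an inhibitor of mTORC1 signalling, at 0.349 to 0.655 FPKM, Chac1, which degrades glutathione, at 0.236 to 0.553 FPKM, and Pycr1, a mitochondrial enzyme of proline synthesis, at 0 to 0.068 FPKM. Atf5 stood at 53.3% of its CD44+/+ level in CD44-/- AMs on the fitted scale, and Asns, Trib3, Mthfd2 and Atf4 had the next largest fitted differences, all towards lower values. ER chaperones differed by no more than 0.07 in either direction. In all, 24 of the 36 genes lay lower and 12 higher in CD44-/- AMs, with a median of -0.03 beside 0.01 over all 10800 genes compared. Of the 36, 1 gene (Atf5) had an adjusted p under 0.05 in the limma fit, where 0.111% of all genes had one (12 genes, 8 higher and 4 lower, or 6 and 5 after quantile normalization) and 0.037% had one with a lower value. In 6 of the 36 the 2 groups did not overlap, and all 6 were lower in CD44-/- AMs, while groups without overlap were found in 4.88% of all genes with lower and 6.75% with higher values. The rule for the list used this contrast, so nothing is read from these shares.

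Levels differed more between roles than between genotypes. ER chaperones were the most abundant, with means from 56.4 FPKM for Hyou1 to 710 FPKM for Calr, and the ER stress sensors lay between 10.6 and 15.7 FPKM. Transcription factors ranged from 12.3 FPKM for Ddit3 to 200 FPKM for Xbp1. The lowest levels were those of Pycr1 at 0.0336 FPKM, Chac1 at 0.388 FPKM and Ddit4 at 0.462 FPKM, followed by Trib3 at 1.74 FPKM, Ppp1r15a at 2.76 FPKM and Asns at 2.98 FPKM.

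**Figure D1:**
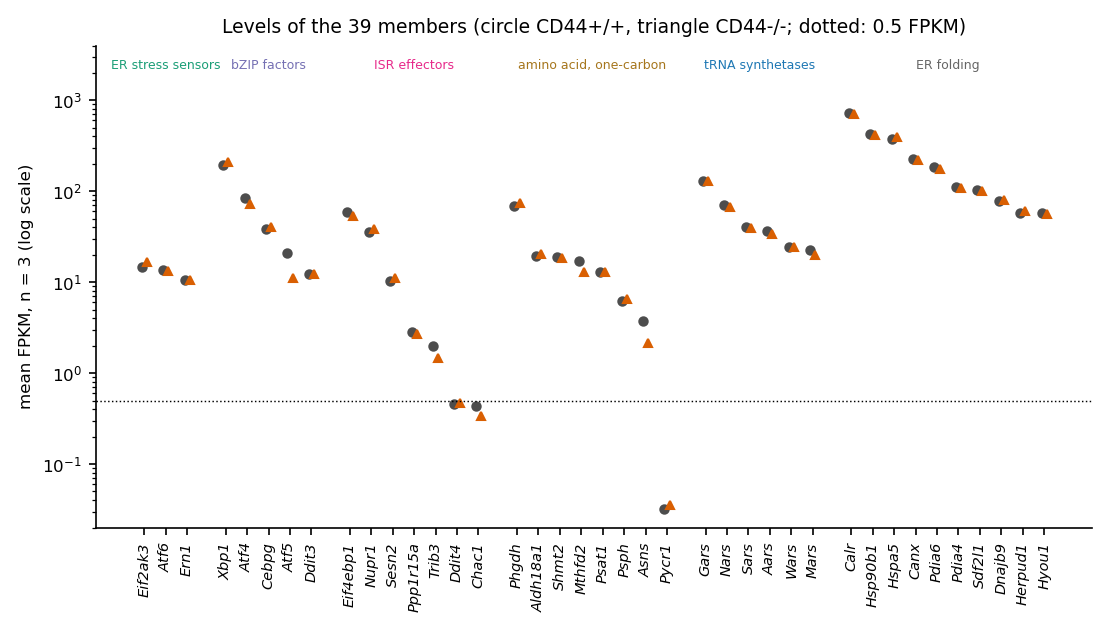
Mean FPKM of 3 samples per genotype for each of the 39 genes on a log axis, grouped by role, with circles for CD44+/+ and triangles for CD44-/- AMs and a dotted line at 0.5 FPKM. ER folding genes stand highest, Ddit4, Chac1 and Pycr1 lie under the line, and Atf5 and Asns show the widest gaps between the symbols among the genes above it.

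The groups overlapped for all 3 ER stress sensors, and the fitted difference of Eif2ak3 was the highest of the 36 genes compared. Eif2ak3 encodes PERK, the eIF2 kinase of the ER membrane, and measured 15.7, 14.6 and 14.2 FPKM in CD44+/+ and 16.5, 17.7 and 15.4 FPKM in CD44-/- AMs (log2 fold change 0.15, SE 0.07). One CD44-/- sample lay below the highest CD44+/+ sample, so the groups overlapped, and same-numbered samples differed by 0.07, 0.28 and 0.12. Ern1 encodes IRE1, the kinase and RNase that splices Xbp1 mRNA, and measured 11.1, 9.83 and 10.7 FPKM against 11.6, 10.5 and 9.84 FPKM (0.01, SE 0.08). Atf6, the membrane-bound transcription factor released by cleavage, measured 13.1, 14.5 and 13.4 FPKM against 12.4, 13.8 and 13.8 FPKM (-0.04, SE 0.07). The samples of both genotypes were interleaved for Ern1 and for Atf6, and the 95% intervals of all 3 sensors lay between -0.20 and 0.32.

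Among the 5 bZIP transcription factors, Atf5 and Atf4 were lower in every CD44-/- sample and the other 3 overlapped. Atf5, a factor of the ISR and of the mitochondrial stress response, measured 19.5, 22.0 and 21.9 FPKM in CD44+/+ AMs, a mean of 21.1 ± 1.4 (SD, n = 3). In CD44-/- AMs it measured 11.4, 10.8 and 11.4 FPKM, a mean of 11.2 ± 0.32. The highest CD44-/- sample lay far below the lowest CD44+/+ sample, and the fitted log2 fold change was -0.91 (SE 0.07, 95% interval -1.06 to -0.75), the 25th lowest of the 10800 genes. Between samples of the same number the log2 difference was -0.77, -1.01 and -0.94, and leaving out each sample in turn gave -0.96 to -0.88.

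Atf4, the central factor of the ISR, measured 81.3, 91.9 and 82.1 FPKM in CD44+/+ and 70.9, 71.2 and 73.0 FPKM in CD44-/- AMs. Again every CD44-/- sample was below every CD44+/+ sample, but the gap was smaller (-0.24, SE 0.06, 95% interval -0.38 to -0.11). Within each sample, the level of Atf5 was therefore a smaller fraction of that of Atf4 in CD44-/- AMs, at 0.161, 0.152 and 0.156 of it against 0.24, 0.239 and 0.267.

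Xbp1, the factor made active by IRE1 splicing, measured 221, 178 and 178 FPKM in CD44+/+ and 237, 196 and 191 FPKM in CD44-/- AMs (0.11, SE 0.11). Replicate 1 was the highest sample of each genotype and the groups overlapped, while between samples of the same number the log2 difference was 0.10, 0.14 and 0.10. Ddit3, which encodes the pro-apoptotic factor CHOP, had means of 12.3 ± 1.12 and 12.3 ± 0.901 FPKM (-0.0018, SE 0.09). Cebpg, a dimer partner of ATF4, had means of 38.2 ± 3.89 and 40.7 ± 2.43 FPKM (0.10, SE 0.08). Ddit3 is itself a target of ATF4, and its 95% interval ran from -0.20 to 0.20. Whether its level follows that of Atf4 was not tested.

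**Figure D2:**
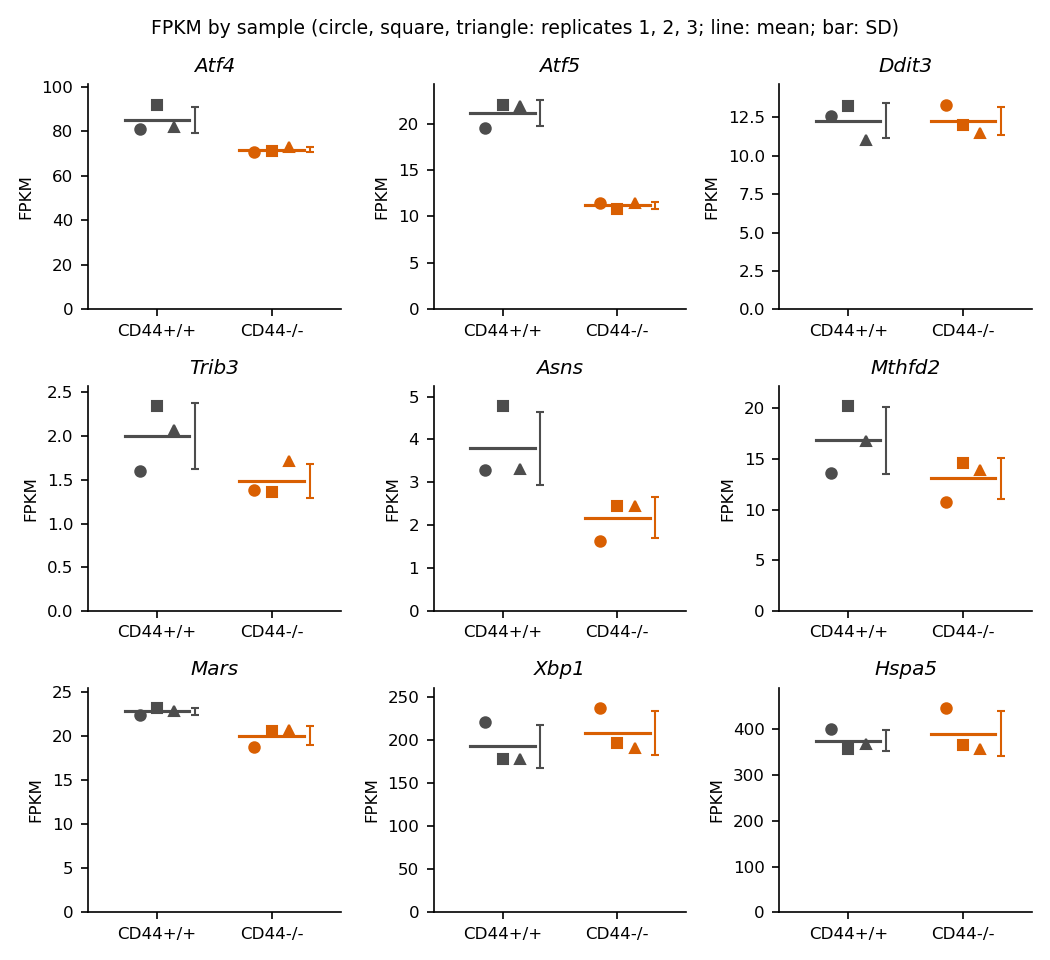
FPKM of 9 genes in each sample, with CD44+/+ on the left and CD44-/- on the right of each panel, lines for the group means, bars for the SD (n = 3) and every axis starting at 0. The groups are apart for Atf4, Atf5, Asns and Mars and overlap for Ddit3, Trib3, Mthfd2, Xbp1 and Hspa5, where for Xbp1 and Hspa5 the circle of replicate 1 is the highest symbol in both groups.

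Atf5 lies close to other genes. The deposited table gives it the span chr7:44812256-44849079 of mm10, which it shares with Nup62, Il4i1, Nup62-il4i1 and Tbc1d17. In GENCODE vM21, Atf5 covers 44812256 to 44816658 on the minus strand and overlaps exons at the start of Nup62 and Il4i1 on the plus strand over 82 of its 1993 exon bases (4.11%). The library kit kept strand, but whether strand was used in counting is not given in the sources used here. Nup62, a nuclear pore gene, measured 24.9, 27.0 and 25.7 FPKM in CD44+/+ and 21.4, 23.1 and 22.6 FPKM in CD44-/- AMs. Its groups did not overlap, and the difference was not called (-0.21, SE 0.06, limma adjusted p = 0.385). Il4i1, a secreted amino acid oxidase, lay at 0.2 to 0.819 FPKM and was not compared, and Nup62-il4i1, the read-through transcript, at no more than 0.284 FPKM. Tbc1d17 measured 13.9, 13 and 13.1 FPKM against 15.3, 14.2 and 13.6 FPKM (0.11, SE 0.07, limma adjusted p = 0.838), with overlapping groups. Atf5 was 0.784, 0.815 and 0.852 of the level of Nup62 in CD44+/+ and 0.534, 0.469 and 0.503 of it in CD44-/- samples. The overlap of gene models was also small for Ddit3 (4.73% of exon bases, shared with Mars and another gene on the other strand) and Mars (1.99%). It was larger for Aars, which shared 14.3% of its exon bases with Exosc6 on its own strand, and on the other strand for Psph (10.4%), Hsp90b1 (10.3%, with 5.38% on its own strand) and Eif2ak3 (8.05%).

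The effectors and feedback genes of the ISR showed no common direction. Trib3, a pseudokinase that inhibits ATF4, measured 1.6, 2.34 and 2.07 FPKM in CD44+/+ and 1.38, 1.36 and 1.71 FPKM in CD44-/- AMs (-0.40, SE 0.18). CD44-/- replicate 3 lay above CD44+/+ replicate 1, so that the groups overlapped, and the 95% interval ran from -0.80 to 0.002. Between samples of the same number the differences were -0.20, -0.74 and -0.26. Eif4ebp1, which encodes the translation repressor 4E-BP1, measured 59.2, 57.3 and 59.6 FPKM against 55.5, 55.1 and 51.2 FPKM (-0.12, SE 0.05). All CD44-/- samples were below all CD44+/+ samples, by a small margin. Nupr1, a stress-induced chromatin protein, measured 34.2, 40.1 and 31.3 FPKM against 36.8, 37.4 and 41.0 FPKM (0.13, SE 0.09), with overlapping groups. Sesn2, a leucine sensor that restrains mTORC1, had means of 10.2 ± 1.18 and 11.0 ± 0.493 FPKM, and Ppp1r15a, the phosphatase subunit GADD34 that reverses eIF2 phosphorylation, of 2.81 ± 0.674 and 2.71 ± 0.0321 FPKM.

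Enzymes of amino acid and one-carbon metabolism held the second largest difference, that of Asns. Asparagine synthetase measured 3.29, 4.77 and 3.31 FPKM in CD44+/+ and 1.62, 2.44 and 2.45 FPKM in CD44-/- AMs. The groups did not overlap, with CD44+/+ replicate 2 the highest and CD44-/- replicate 1 the lowest sample (-0.78, SE 0.20, 95% interval -1.24 to -0.32), and the fitted CD44-/- level was 58.3% of the CD44+/+ level. Mthfd2, a mitochondrial folate enzyme, had the same highest and lowest samples, at 13.6, 20.2 and 16.8 FPKM against 10.8, 14.6 and 13.9 FPKM (-0.36, SE 0.16), but its groups overlapped. Its difference was -0.22 without CD44+/+ replicate 2 or without CD44-/- replicate 1, and -0.33, -0.47 and -0.27 between samples of the same number. The fitted differences of the 3 enzymes of serine synthesis were small, with Phgdh and Psph above 0 and Psat1 below. Phgdh, the first enzyme of that pathway, measured 68.2, 73.9 and 62.7 FPKM against 73.4, 73.2 and 78 FPKM (0.14, SE 0.07). Psat1 and Psph differed by -0.04 (SE 0.08) and 0.09 (SE 0.08), Shmt2, a mitochondrial serine hydroxymethyltransferase, by -0.05 (SE 0.07), and Aldh18a1, an enzyme of proline synthesis, by 0.08 (SE 0.07). Groups overlapped in these 5 genes.

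All 6 aminoacyl-tRNA synthetases of the list, the enzymes that charge tRNAs, had negative fitted differences under every scaling tried, and all were small. Without CD44+/+ replicate 1 or CD44-/- replicate 2 the value of Gars was above 0, as was that of Wars without CD44+/+ replicate 3. Mars, for methionine, measured 22.4, 23.2 and 22.8 FPKM in CD44+/+ and 18.8, 20.6 and 20.7 FPKM in CD44-/- AMs, with no overlap (-0.19, SE 0.06, 95% interval -0.32 to -0.05). Aars, for alanine, measured 34.8, 35.9 and 37.9 FPKM against 32.2, 33.9 and 34.6 FPKM, again with no overlap but with sample values that nearly met (-0.11, SE 0.06). Nars, for asparagine, measured 71.9, 71.9 and 69.4 FPKM against 70.6, 62.8 and 66.8 FPKM (-0.09, SE 0.06), and its groups overlapped. Gars, for glycine and the most abundant of the 6, measured 136, 130 and 123 FPKM against 133, 125 and 130 FPKM (-0.003, SE 0.05). Sars, for serine, and Wars, for tryptophan, differed by -0.04 (SE 0.06) and -0.03 (SE 0.07).

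Between genotypes, the 10 ER chaperones and folding genes were the most even group, with fitted differences from -0.07 to 0.07. Calr, the lectin chaperone calreticulin, measured 726, 706 and 718 FPKM in CD44+/+ and 748, 676 and 689 FPKM in CD44-/- AMs (-0.03, SE 0.05). Canx, its membrane-bound partner calnexin, measured 222, 228 and 228 FPKM against 226, 211 and 216 FPKM (-0.05, SE 0.05). CD44-/- samples lay both above and below CD44+/+ samples for Calr, and for Canx CD44-/- replicate 1 lay among the CD44+/+ samples. Pdia6, a protein disulphide isomerase, measured 181, 187 and 183 FPKM against 190, 164 and 172 FPKM (-0.07, SE 0.06). Herpud1, a membrane protein of ER-associated degradation (ERAD), measured 60.0, 59.3 and 55.5 FPKM against 63.7, 62.2 and 57.9 FPKM (0.07, SE 0.06). These were the largest differences of the group in each direction, and groups overlapped for both genes. Hspa5, the central chaperone BiP, measured 402, 357 and 368 FPKM against 447, 367 and 357 FPKM (0.05, SE 0.09), and replicate 1 was the highest sample in each genotype, as for Xbp1.

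The other members of this group were Hsp90b1 (GRP94), Pdia4 (a disulphide isomerase), Dnajb9 and Sdf2l1 (cofactors of BiP) and Hyou1 (an ER chaperone of the HSP70 superfamily), which differed by -0.03, -0.03, 0.03, -0.01 and -0.04. For 9 of the 10 genes the 95% interval of the difference lay within 0.25 of 0 on the log2 scale, and for Hspa5 it reached from -0.15 to 0.25. Over all 36 genes compared, the interval lay within 0.5 of 0 for 32, and the exceptions were Atf5, Asns, Trib3 and Mthfd2.

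**Figure D3:**
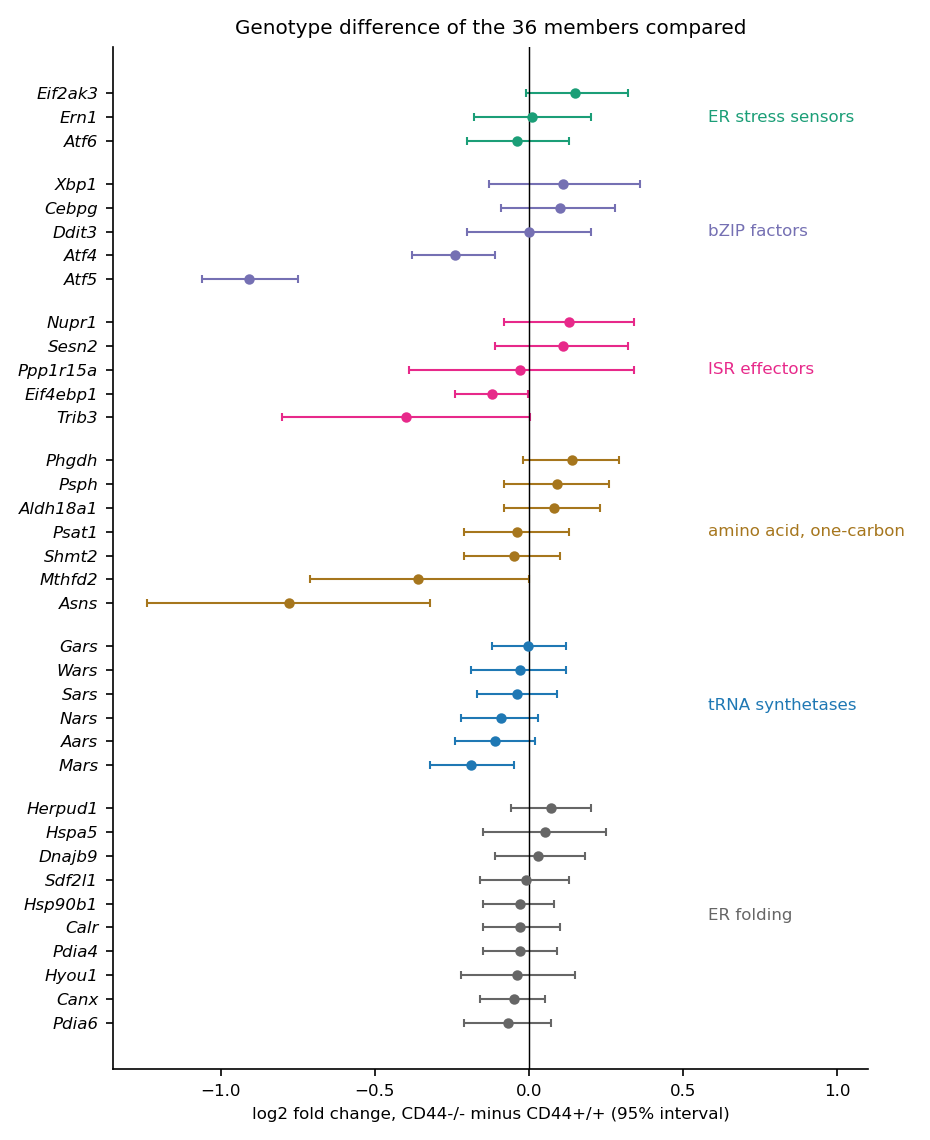
Log2 fold change, CD44-/- minus CD44+/+, with its 95% interval from the limma fit for the 36 genes compared (n = 3 per group), ordered within each role. The interval of Atf5 runs from -1.06 to -0.75 and meets those of Asns and Trib3, and the intervals of the ER folding genes all include 0.

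The genes did not vary as one block over the samples. CD44-/- replicate 1 was the highest of the 6 samples for 12 of the 36 genes, and 7 of these were ER chaperones or folding genes. The same sample was the lowest for 7 genes, among them Asns, Mthfd2, Atf4, Mars and Aars. CD44+/+ replicate 2 was the highest for 9 genes, among them Atf4, Atf5, Asns, Trib3, Mthfd2 and Mars. The mean centred log2 level of the ER folding genes was 0.10 in CD44-/- replicate 1 and lay between -0.06 and 0.02 in the other 5 samples, while that of the bZIP factors was 0.02 to 0.14 in CD44+/+ and -0.15 to -0.03 in CD44-/- samples. Without Atf5 the bZIP ranges overlapped, at -0.10 to 0.09 in CD44+/+ and -0.06 to 0.07 in CD44-/- samples. The synthetases, although the gap was small, had means of 0.04 in each CD44+/+ sample and -0.05 to -0.02 in CD44-/- samples. Spread within a genotype was lowest for the ER folding genes in CD44+/+ (median coefficient of variation 2.75%) and for the synthetases in CD44-/- AMs (3.86%), and the widest single value was 24%, for Ppp1r15a in CD44+/+ AMs.

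**Figure D4:**
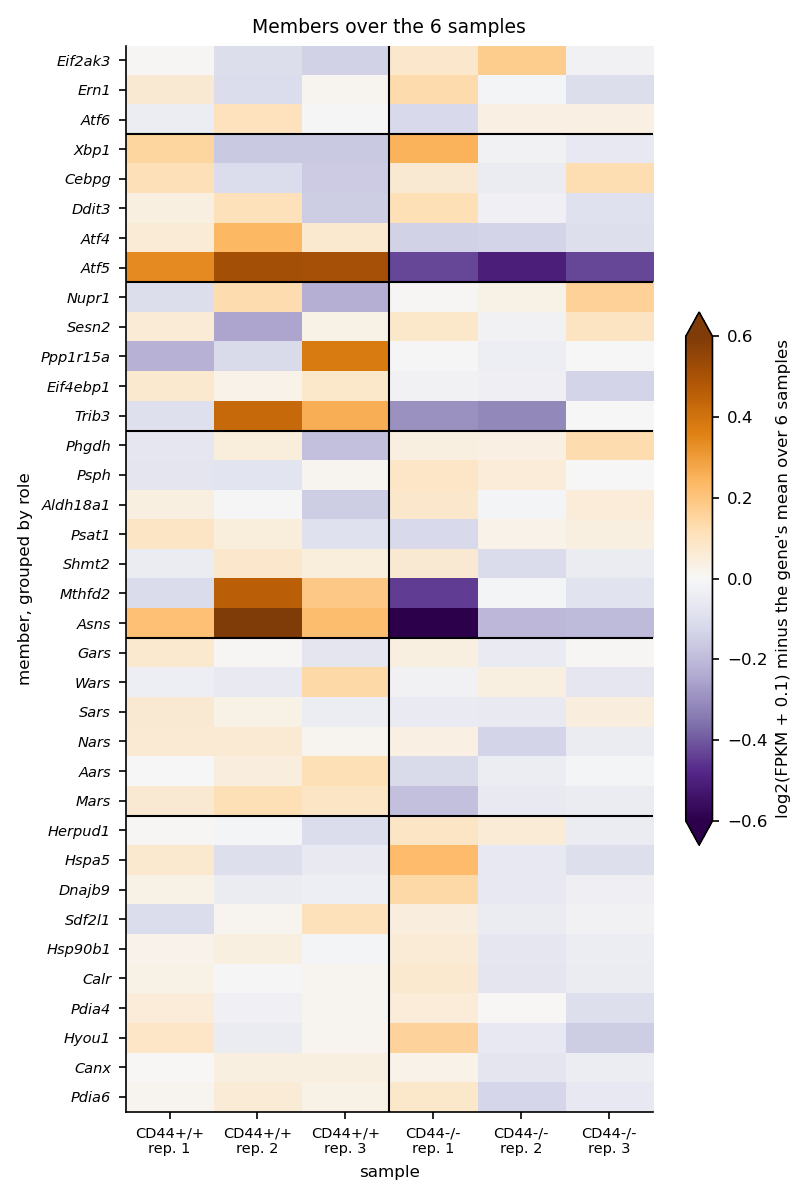
Level of each of the 36 genes in each sample as log2(FPKM + 0.1) minus the mean of the gene over the 6 samples, with rows grouped by role and colours from -0.6 to 0.6. Atf5 and Asns change colour between the genotypes in all samples. Asns and Mthfd2 are highest in CD44+/+ replicate 2 and lowest in CD44-/- replicate 1, and the groups of Mthfd2 overlap. CD44-/- replicate 1 stands out on the high side among the ER folding genes and Xbp1.

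The rest of the pathway was taken from 136 further genes in 7 lists, of which 123 were compared. None had an adjusted p under 0.05 in the limma fit, where the lowest was 0.369. At an unadjusted p under 0.05, 1 gene was higher and 6 were lower, where 4.75% of all genes were higher and 2.94% lower. The groups did not overlap in 3 genes with higher values and in 15 with lower values, beside 6.75% and 4.88% of all genes. The median difference of the 123 genes was -0.01.

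The machinery of eIF2 itself had 11 of 15 genes lower, 4 higher and a median of -0.05, and the groups did not overlap, with lower values, in 3 of the 15, beside 4.88% of all genes. These were Eif2s1 (named after its values were seen), Eif2b3 and Ppp1cb. Eif2b3, a subunit of the exchange factor eIF2B, measured 14.6, 12.4 and 12.7 FPKM against 11.9, 12.3 and 10.9 FPKM (-0.17, SE 0.08), and Eif2s2, the beta subunit of eIF2, had means of 21.6 ± 2.04 and 19.6 ± 0.839 FPKM (-0.14, SE 0.08). Ppp1cb, a catalytic subunit of the phosphatase that GADD34 recruits and the most abundant gene of this list, differed by -0.04 (SE 0.05).

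Of 30 other ATF4 target genes, 18 were compared, 12 lower and 6 higher with a median of -0.06. Slc7a11, the cystine transporter, had the largest difference but also a wide spread, at 4.37, 8.99 and 16.1 FPKM in CD44+/+ and 7.82, 6.07 and 4.97 FPKM in CD44-/- AMs (-0.47, SE 0.40). It was -0.95 without CD44+/+ replicate 1 and -0.02 without CD44+/+ replicate 3. Atf3, a stress-induced bZIP factor, measured 15.5, 22.4 and 19.1 FPKM against 14.2, 13.7 and 13.9 FPKM (-0.43, SE 0.12). The Atf3 groups did not overlap, and without CD44+/+ replicate 1 the gene passed the threshold (-0.57, limma adjusted p = 0.0483). Cebpb, the most abundant target, measured 547, 176 and 239 FPKM against 574, 240 and 287 FPKM (0.26, SE 0.43), with replicate 1 the highest of each genotype. Between samples of the same number Cebpb differed by 0.07, 0.45 and 0.26. The 5 genes without overlap and with lower values (beside 4.88% of all genes), named after their values were seen, were Atf3, the nuclear export factor of tRNA Xpot and the amino acid transporters Slc7a1, Slc7a5 and Slc1a5. Slc7a1, for cationic amino acids, measured 5.56, 7.29 and 7.13 FPKM against 4.72, 5.28 and 4.67 FPKM (-0.43, SE 0.12), and Slc7a5, for large neutral amino acids, 28.5, 30.3 and 29.4 FPKM against 26.0, 25.9 and 25.9 FPKM (-0.18, SE 0.05). Gpt2, the mitochondrial alanine aminotransferase, was the 1 gene without overlap in the other direction (beside 6.75% of all genes), at 4.86, 4.21 and 4.73 FPKM against 5.86, 5.27 and 5.8 FPKM (0.29, SE 0.09). Of the 109 further pathway genes with a promoter window, 9 held TGATGCAA, among them Slc7a11, Atf3 and the synthetases Iars, Tars and Yars.

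The other 14 cytosolic synthetases had 11 genes lower and 3 higher (median -0.05), with Yars at 18.3, 20.7 and 19.8 FPKM against 17.1, 16.2 and 16.5 FPKM (-0.24, SE 0.07) and Cars at -0.17 (SE 0.07). Together with those of the list, 17 of 20 cytosolic synthetases lay lower in CD44-/- AMs, by at most 0.24, and 6 of the 20 had groups without overlap and lower values, beside 4.88% of all genes. The 17 became 18 or 19 under the other scalings, and 15 without CD44+/+ replicate 1 or without CD44-/- replicate 1. Qars, the most abundant of these 14, differed by -0.01 (SE 0.06). The 17 mitochondrial synthetases had 10 genes lower and 7 higher (median -0.01), none without overlap, and ranged from -0.12 for Rars2 to 0.08, with Yars2 at -0.11 (SE 0.08) and Iars2, the most abundant, at 0.01 (SE 0.06).

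The 36 other genes of ER folding, translocation and ERAD were divided evenly, with 18 lower and 18 higher and a median of 0.0037. The groups did not overlap, with higher values in CD44-/- AMs, in 2 of the 36, beside 6.75% of all genes, and in none with lower values. These were Ssr1 (0.06, SE 0.05) and Ssr2 (0.08, SE 0.05), subunits of the translocon-associated protein complex, named after their values were seen. Pdia3, a disulphide isomerase and the most abundant of them, measured 345, 348 and 326 FPKM against 340, 323 and 345 FPKM (-0.02, SE 0.05). Derl3, an ERAD factor, and Sec61g, a subunit of the translocon, had the largest differences at -0.18 (SE 0.27) and 0.14 (SE 0.17), both within their spread. Among 13 mitochondrial chaperones and proteases, 7 were lower and 6 higher (median -0.02). Hspd1 (HSP60) and Hspa9 (mortalin) had the largest differences at -0.10 (SE 0.05) and -0.09 (SE 0.05). In these 2 of the 13 the groups did not overlap, with lower values, beside 4.88% of all genes. Of 10 cytosolic heat shock genes compared, 8 were higher and 2 lower (median 0.05). Hspa1a and Hspa1b, a near-identical pair of inducible HSP70 genes among which reads may be split, had the largest differences and a wide spread (0.76, SE 0.58, and 0.30, SE 0.57). With 1 sample left out, Hspa1a ranged from 0.38 without CD44+/+ replicate 2 to 1.37 without CD44-/- replicate 2. Hspa1b ranged from -0.13 without CD44-/- replicate 3 to 0.99 without CD44-/- replicate 2, and was also below 0 without CD44+/+ replicate 2 (-0.06). Hsp90ab1, a constitutive HSP90 gene and the most abundant of the list, measured 666, 692 and 711 FPKM against 645, 587 and 634 FPKM (-0.15, SE 0.05). It was the 1 gene of the 10 without overlap, beside 4.88% of all genes with lower values.

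**Figure D5:**
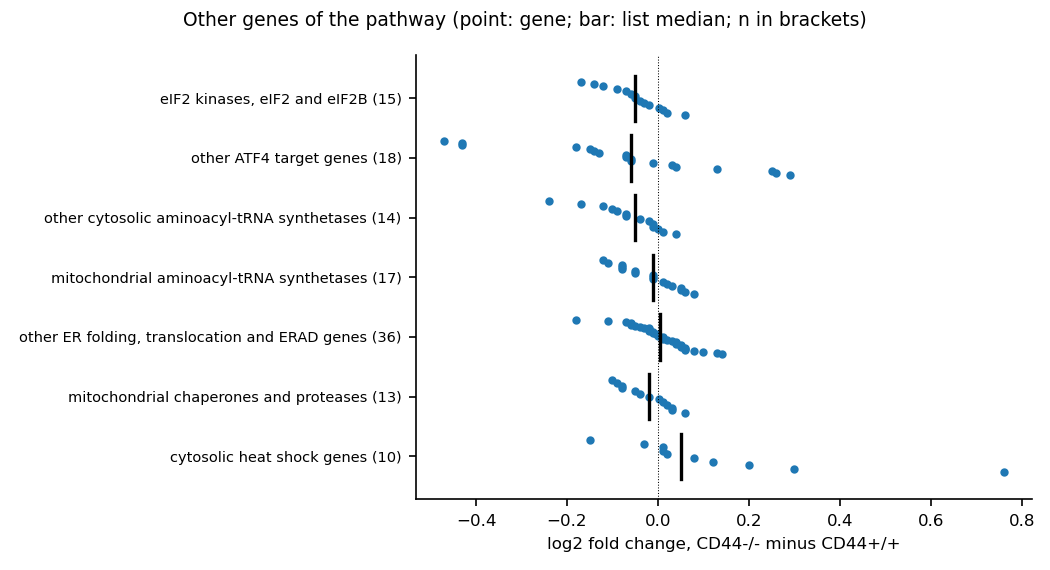
Log2 fold change, CD44-/- minus CD44+/+, of the 123 further pathway genes compared, with 1 point per gene, a black bar at the median of each list and the number of genes in brackets. Medians lie between -0.06 and 0.05, and the widest points belong to the ATF4 targets on the low side and to Hspa1a at 0.76.

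The genes were spread over 16 chromosomes. Trib3, Chac1 and Hspa5 lie on chromosome 2, as Cd44 does, and the nearest of them, Chac1, is 16.4 Mb from Cd44. Atf5, Atf4 and Asns lie on chromosomes 7, 15 and 6.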

How the data were processed

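RNA of BAL cells was sequenced by the authors with paired-end reads, aligned to mm10 with STAR and quantified with Cufflinks. The deposited values are FPKM for 24341 genes in 6 samples. The authors' columns of Cuffdiff group means, log2 fold change, p-value and q-value were not used. Name and position columns of the table follow another row order than the gene identifiers and sample values, so positions were looked up by gene name.

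The 10800 genes averaging 0.5 FPKM or more were compared on log2(FPKM + 0.1) with limma 3.58.1 in R 4.3.3 (eBayes with a trend, two-sided, Benjamini-Hochberg adjustment over all of them, calls at an adjusted p under 0.05), checked on simulated data. Rapgef6, with 1 missing value, was dropped. Groups and replicate numbers came from the labels. Same-numbered samples of both genotypes deviated together from their group means (correlation over genes 0.212, 0.132 and 0.211), so a replicate block was fitted as an alternative.

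The genes described and the other lists were chosen with earlier results of these data known. All 39 are named, with sample values for Atf5, Atf4 and, in each role, the 3 with the largest difference and the most abundant. Of the other lists, called genes, the 2 with the largest difference and the most abundant are named. Sample values of Hspa5, and the further pathway genes named for their motifs or for groups without overlap, were added after their values were seen. Promoter sequences are from RefSeq (GRCm38.p6), and some results are not reported here. Alternatives were quantile normalization or scaling by median ratios, a higher filter (1 FPKM) or none, other pseudocounts (1 and 0.01), robust or untrended eBayes, the replicate block and omission of single samples.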

Additional observations from a re-analysis of the deposited data

How the results depend on the processing

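The 36 genes compared gave 540 values under 15 alternatives, and none moved by more than the spread between replicates or changed its side of the threshold. Under every alternative 1 of them, Atf5, was called, at -0.96 to -0.86, which describes the gene and is no support, since it was selected on this contrast. With the replicate block, in which same-numbered samples are paired, the calls over all genes were 9 in place of 12, still with 1 of the 36. No other call reported here changed with the block. Calls over all genes numbered 7 with no filter on low values and 6 to 36 when each sample was left out in turn. They were 36 without CD44+/+ replicate 1, 22 without CD44-/- replicate 1, 7 without CD44+/+ replicate 2 and 6 without CD44-/- replicate 2, and the cause was not tested. Of the 36 genes, 20 to 25 lay lower under the alternatives, and 23 kept their sign in all of them. No scaling moved the median of all genes by more than 0.03.

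With each sample left out in turn, list medians ran from 0.01 to 0.07 for ER stress sensors, -0.08 to 0.05 for bZIP factors, -0.12 to 0.05 for ISR effectors, -0.08 to -0.05 for the synthetases of the list, -0.07 to -0.02 for the other cytosolic ones, -0.04 to 0.05 for the mitochondrial ones, -0.07 to 0.02 for mitochondrial chaperones and proteases, -0.05 to 0.01 for amino acid and one-carbon enzymes, -0.07 to 0.0035 for ER chaperones, -0.06 to -0.03 for eIF2 genes, -0.03 to 0.03 for other ER folding genes, -0.12 to 0.01 for other ATF4 targets and -0.02 to 0.14 for heat shock genes. The median of the other ATF4 targets was 0.03 with no filter, where more low genes enter, and their calls ranged from 0 to 1, the 1 being Atf3. Depth is unknown, so values under 0.5 FPKM carry no interval, and each genotype has 3 pools.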
